A study of Mus musculus with 18 samples.

Results

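The regions described here are 6341 peaks at promoters of protein-coding genes with ChIP-seq signal of both RNA polymerase II (Pol II) and CTCF in mouse heart ventricles. They were chosen by the measured values themselves. On chromosomes 1 to 19, a peak shorter than 5000 nt and annotated to a coding gene was selected when the mean of its 6 Pol II values and the mean of its 6 CTCF values were both at least 50. These members made up 6.26% of the 101256 peaks of the table, or 6341 of the 25702 autosomal coding peaks shorter than 5000 nt. They belonged to 6068 genes, of which 5810 had 1 member peak, 243 had 2 and 15 had 3. The value is the read count of a peak after normalization to the library, so 50 has no absolute meaning beyond this table.

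The study recorded Pol II (B1 subunit), CTCF and IgG, the negative control, in ventricles of 3 genotypes. *Trdn-as* KO mice were homozygous for a polyA site placed in the first exon of *Trdn-as*, the antisense transcript of the triadin gene *Trdn*, and came from an edited embryonic stem cell line crossed back to C57BL/6. *Mettl3* KO mice (Mettl3 lox/lox:alphaMHC-MerCreMer positive) received tamoxifen as adults, which removes the m6A RNA methyltransferase gene in cardiomyocytes and leaves it in the other cells of the ventricle. The hearts used for ChIP were adult. The controls are labelled WT, while the methods also describe Mettl3 lox/lox controls that received tamoxifen, and whether the WT libraries came from such mice is not given in the sources used here. Each genotype had 2 libraries per target and 1 IgG library, each made from chromatin of 2 hearts, so p-values measure the spread between such libraries.

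Pol II transcribes coding genes and collects in and just downstream of the promoter, where it pauses before elongation. CTCF is a zinc finger protein that binds a long, GC-rich motif and, together with cohesin, anchors chromatin loops and domain borders. A share of CTCF sites lies close to gene starts, and ChIP of open promoters also recovers DNA that no antibody target holds, which the IgG library measures.

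The promoter sequences below come from RefSeq, in the build GRCm38.p6, and cover 250 nt before and 50 nt from the annotated start on, which counts as position 0. The peak coordinates are in GRCm39, so the windows were joined by gene name and not by position. Only members whose peak covered the start and whose gene had a single window are shown. The first 4 have the highest CTCF values among those that held the CTCF core, a pattern of 12 positions searched on both strands, and the capitals mark that match. They lie at chr7:19749524-19749823 (*Nectin2*, minus strand), chr4:126262155-126262454 (*Trappc3*, plus strand), chr2:93822519-93822818 (*Ext2*, minus strand) and chr11:94549158-94549457 (*Rsad1*, minus strand).
Nectin2: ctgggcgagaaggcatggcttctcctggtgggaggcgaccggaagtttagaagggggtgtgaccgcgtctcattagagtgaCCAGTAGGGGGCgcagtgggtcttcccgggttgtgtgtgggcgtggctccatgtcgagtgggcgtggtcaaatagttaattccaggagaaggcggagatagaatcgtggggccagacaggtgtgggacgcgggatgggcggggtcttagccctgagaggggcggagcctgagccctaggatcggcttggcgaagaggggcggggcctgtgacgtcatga
Trappc3: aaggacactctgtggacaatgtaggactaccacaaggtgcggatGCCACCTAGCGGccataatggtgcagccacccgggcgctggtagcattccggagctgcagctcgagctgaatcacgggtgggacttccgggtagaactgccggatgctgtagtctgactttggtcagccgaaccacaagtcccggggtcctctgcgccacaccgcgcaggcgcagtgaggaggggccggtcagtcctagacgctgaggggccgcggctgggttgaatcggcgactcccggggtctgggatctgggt
Ext2: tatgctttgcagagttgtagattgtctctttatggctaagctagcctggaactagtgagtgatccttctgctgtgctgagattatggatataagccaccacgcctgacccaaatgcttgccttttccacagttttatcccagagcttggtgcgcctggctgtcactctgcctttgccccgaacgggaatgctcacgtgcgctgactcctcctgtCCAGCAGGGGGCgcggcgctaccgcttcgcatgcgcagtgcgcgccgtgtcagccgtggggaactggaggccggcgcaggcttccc
Rsad1: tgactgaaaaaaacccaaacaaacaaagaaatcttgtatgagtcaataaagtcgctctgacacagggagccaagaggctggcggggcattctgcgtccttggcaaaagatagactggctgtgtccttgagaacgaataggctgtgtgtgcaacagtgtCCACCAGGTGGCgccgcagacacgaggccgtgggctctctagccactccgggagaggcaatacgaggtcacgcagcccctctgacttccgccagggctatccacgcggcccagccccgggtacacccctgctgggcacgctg
The next 3 are those with the highest CTCF values without that core, at chr19:5567774-5568073 (*Ap5b1*), chr11:69580109-69580408 (*Trp53*) and chr7:126695750-126696049 (*Bola2*), all on the plus strand. Here the capitals mark GC boxes, an ETS motif, CCAAT boxes, an E-box and a TATA box on either strand, whose letters are spelled out where their counts are given.
Ap5b1: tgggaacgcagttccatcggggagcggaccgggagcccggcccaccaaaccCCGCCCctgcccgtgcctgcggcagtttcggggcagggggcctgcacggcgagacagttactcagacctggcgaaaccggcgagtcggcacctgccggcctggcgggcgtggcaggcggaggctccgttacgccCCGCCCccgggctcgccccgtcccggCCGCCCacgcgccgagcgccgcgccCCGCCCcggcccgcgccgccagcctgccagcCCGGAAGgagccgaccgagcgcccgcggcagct
Trp53: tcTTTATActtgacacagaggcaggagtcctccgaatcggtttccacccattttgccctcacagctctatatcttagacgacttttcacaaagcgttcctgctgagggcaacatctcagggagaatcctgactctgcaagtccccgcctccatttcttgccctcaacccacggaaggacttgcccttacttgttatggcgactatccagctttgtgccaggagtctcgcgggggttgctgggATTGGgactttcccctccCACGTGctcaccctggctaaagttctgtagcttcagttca
Bola2: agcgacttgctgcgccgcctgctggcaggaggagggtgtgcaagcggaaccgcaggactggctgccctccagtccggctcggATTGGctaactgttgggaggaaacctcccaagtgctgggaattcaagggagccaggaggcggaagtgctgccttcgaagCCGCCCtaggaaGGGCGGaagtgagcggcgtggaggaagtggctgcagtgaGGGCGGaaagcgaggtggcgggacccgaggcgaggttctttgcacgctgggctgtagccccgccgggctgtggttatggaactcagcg
The last 4 are the promoters with the smallest adjusted p in each comparison of a knockout with WT, within the same limits (*Thoc1* and *Arhgap26* are not shown). They are *Sdf2l1* (chr16:17132334-17132633, minus strand) and *Npas2* (chr1:39194022-39194321, plus strand) for Pol II, and *Cxcl1* (chr5:90890995-90891294, plus strand) and *Ercc1* (chr7:19344821-19345120, plus strand) for CTCF. Their capitals mark the same motifs, and the window of *Cxcl1* held none of them.
Sdf2l1: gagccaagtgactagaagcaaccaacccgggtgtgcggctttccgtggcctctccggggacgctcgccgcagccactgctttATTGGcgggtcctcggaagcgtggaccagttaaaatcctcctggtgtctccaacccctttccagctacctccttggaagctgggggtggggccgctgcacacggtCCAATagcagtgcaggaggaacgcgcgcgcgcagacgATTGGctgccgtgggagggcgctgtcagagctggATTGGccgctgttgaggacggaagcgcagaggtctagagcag
Npas2: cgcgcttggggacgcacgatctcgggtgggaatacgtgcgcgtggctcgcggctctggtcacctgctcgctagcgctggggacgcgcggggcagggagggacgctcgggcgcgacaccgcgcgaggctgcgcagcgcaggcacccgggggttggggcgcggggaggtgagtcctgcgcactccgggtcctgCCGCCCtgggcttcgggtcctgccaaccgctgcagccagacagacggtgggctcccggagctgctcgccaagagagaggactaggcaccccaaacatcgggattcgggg
Cxcl1: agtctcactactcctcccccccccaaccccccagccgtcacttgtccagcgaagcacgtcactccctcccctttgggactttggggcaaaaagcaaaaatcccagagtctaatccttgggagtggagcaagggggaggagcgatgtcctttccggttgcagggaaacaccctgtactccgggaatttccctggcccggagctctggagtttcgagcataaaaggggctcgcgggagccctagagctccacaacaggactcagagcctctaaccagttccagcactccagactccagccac
Ercc1: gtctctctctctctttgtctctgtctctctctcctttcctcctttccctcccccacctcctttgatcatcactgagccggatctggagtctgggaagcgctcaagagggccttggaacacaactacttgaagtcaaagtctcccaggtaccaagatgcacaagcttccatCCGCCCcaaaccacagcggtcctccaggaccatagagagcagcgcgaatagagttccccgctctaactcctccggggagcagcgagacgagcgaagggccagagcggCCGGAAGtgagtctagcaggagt

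Members were long peaks that sat over the start of their gene. Their median length was 1712 nt, against 961 nt in the 4254 coding peaks with Pol II at 50 or more and CTCF under 50 (Pol II-only) and 999.5 nt in the 1632 with CTCF at 50 or more and Pol II under 50 (CTCF-only). The peak covered the start in 88.5% of members, in 72.8% of Pol II-only and in 11.8% of CTCF-only peaks. The centre lay downstream of the start in 69.3% of members, with a median position 144.5 nt into the gene, while the median CTCF-only peak was centred at −1252.5 nt, where a negative sign means upstream of the start. Members took between 22.2% of the coding peaks of chromosome 13 and 27.5% of those of chromosome 19.

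The Pol II value of members had a median of 311 and ran from 50 to 1876.5, with 1075 members above 500 and 62 above 1000. The CTCF value was lower, with a median of 85.7 and a maximum of 478.7. CTCF exceeded Pol II in 7.46% of members. The selection cut through a continuous distribution: *Synpo2* and *Rufy4* were inside with a Pol II mean of 50, and *Gopc* (49.7) and *Gnat1* (49.5) were outside. On the CTCF side *Ambra1* and *Cd82* were inside at 50, and *Mreg* and *Stil* were outside at 49.8. There were 609 members within 5 units above the CTCF threshold and 606 coding peaks within 5 units below it, against 45 and 36 at the Pol II threshold. Far more peaks thus lay close to the CTCF threshold.

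IgG also gave signal at members. In the normalized values, scaled jointly over all antibodies, the median of members was 72.7 for IgG and 85.7 for CTCF. How much of the CTCF value of a member was background was not tested. In WT, members had a median IgG signal of 1.76 RPM (reads scaled to the uniquely mapped reads of the library), against 0.902 at Pol II-only and 0.664 at CTCF-only peaks. The median ratio of Pol II to IgG, both in RPM with 1 read added to IgG, was 14.1 at members, 12.4 at Pol II-only and 1.66 at CTCF-only peaks. The ratio of CTCF to IgG was 6.01 at members, 4.23 at Pol II-only and 13.9 at CTCF-only peaks, and the 10th percentile of members was 3.96. Per kb of peak, the CTCF value was 49.8 at members, 33.0 at Pol II-only and 83.9 at CTCF-only peaks, and the Pol II value was 180, 139 and 13.5. Members thus had less CTCF over IgG than CTCF-only peaks, most of which lie off the start, and more Pol II per kb than Pol II-only peaks. These values describe the 3 sets, which the same measurements had chosen.

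Within members, the CTCF value went more with peak length (r = 0.64 across the log values of the 6341 peaks) and with IgG (r = 0.51) than with Pol II (r = 0.18). Pol II correlated with peak length at r = 0.52. These correlations are across peaks that share libraries, and a sum over a longer peak is larger for every antibody. The thresholds on Pol II and CTCF shape the correlation between the 2, which was 0.65 in Pol II-only, 0.48 in CTCF-only and 0.30 in coding peaks with both under 50.

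Replicate libraries gave similar values. The median absolute difference between replicates over members, after their median difference was taken off, was 0.093 on the log2 scale for Pol II in WT, 0.121 in *Trdn-as* KO and 0.094 in *Mettl3* KO, and 0.10, 0.113 and 0.073 for CTCF. Replicate 2 of *Trdn-as* KO Pol II stood apart. It held 18.6% of its mapped reads in peaks, against 35.5% to 42.5% in the other 5 Pol II libraries, and its member values were lower than those of replicate 1 by a median of 0.33 on the log2 scale. Its median member had 11.7 RPM, against 23.3 to 29.3 in the other 5. Summed values of Y chromosome peaks were 0 in all 5 *Trdn-as* KO libraries, IgG included, and ran from 50 to 326 in the other 10, so genotype and sex of the hearts cannot be told apart in any comparison that uses *Trdn-as* KO. Members are autosomal. The peaks of the targeted genes were not members and check no label: the *Mettl3* promoter peak had Pol II values of 177 and 202 (WT) and 240 and 235 (*Mettl3* KO), and neither knockout removes a promoter.

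The 8 members with the largest geometric mean of both signals were the promoters of *Ubtf*, *Kmt2e*, *Klf9*, *Pim1*, *Ing1*, *Nrp1*, *Mxi1* and *Klf7*. *Ubtf*, which encodes a transcription factor of ribosomal RNA genes, had Pol II values of 1409 and 1494 (WT), 1688 and 1401 (*Trdn-as* KO) and 1712 and 1743 (*Mettl3* KO), and CTCF values of 350 and 342, 351 and 348, and 337 and 352 (chr11:102207110-102212057). Its IgG values were 237, 243 and 221. *Kmt2e*, a chromatin regulator gene, had the highest Pol II mean of all members, from 1657 to 2174 across the 6 libraries, with CTCF between 247 and 274. *Pim1*, a serine/threonine kinase gene, had the highest CTCF of the 8, between 374 and 429, with Pol II from 796 to 1218. None of the 8 was called in any of the 6 comparisons within a target. All 8 peaks were 4280 nt or longer, and a longer peak collects more signal of every kind.

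**Figure D1:**
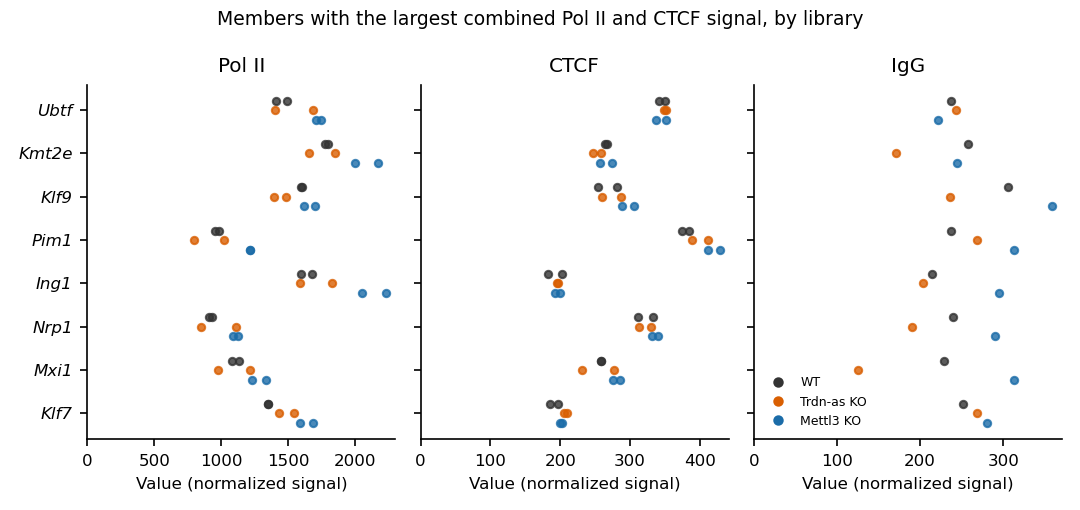
Values of Pol II, CTCF and IgG (horizontal, normalized signal) in each library at the 8 members with the largest combined signal, 1 point per library, coloured by genotype. IgG reaches 359 at *Klf9*, and the CTCF points of the 3 genotypes lie close together.

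For the sequence features, 4498 of the 5610 member genes with a peak over the start (80.2%) had a window in the promoter table. Shares are means over genes, and a gene with several windows counts by the share of its windows that match. On this measure 2.62% of these promoters held the CTCF core, against 0.979% for the 27025 genes of the table. Their GC content was 62.8% against 53.6%, and they had a median of 23 CpG dinucleotides against 7. GC boxes (GGGCGG, on either strand as for all motifs here) were found in 70.4% (all genes 35.6%), the ETS motif CCGGAAG in 18.5% (9.07%), the NRF1 motif GCATGCGC in 6.02% (2.76%), the YY1 motif AAGATGGCG in 3.21% (1.49%) and the E-box CACGTG in 10.0% (7.13%). The TATA box (TATAAA) was less frequent, at 6.21% against 14.2%, and the CCAAT box was found in 38.6% against 37.8%. A head-to-head neighbour that starts within 1000 nt was found for 17.3% of them and for 11.3% of all genes. Pol II-only genes, of which 78.0% had a window, were like members in most of these features, with 59.8% GC, GC boxes in 62.8%, the TATA box in 7.90%, ETS motifs in 21.3%, NRF1 in 6.25%, YY1 in 3.46% and E-boxes in 10.7%. They held the CTCF core in 0.145% and had a head-to-head neighbour in 11.8%, nearer to all genes than to members. Of the CTCF-only genes 136 had a window (70.5%), and 17.3% of these held the core. The differences between the sets were not tested, and the sets were cut by CTCF and Pol II themselves. CpG-rich promoters with GC boxes and few TATA boxes are the kind found at broadly used genes.

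The CTCF core was concentrated in the members with the densest CTCF. When members were divided into 5 equal groups by CTCF value per kb, 0.299%, 0.508%, 0.638%, 1.57% and 10.6% of the promoters held it, from the lowest group to the highest. ETS motifs went from 12.3% to 21.6% and GC boxes from 74.0% to 65.8%. The 130 members with a core in any of their windows had a median CTCF value of 147.75, against 83.9 in the 4368 without, at similar peak length (1659 and 1699 nt). Their Pol II median was 218.25, against 326.7. Of the 20 matched members with the highest CTCF, 3 held the core in any window, of the top 100 10 and of the top 500 37. A match is a description of letters, and a peak of this length extends well beyond the window searched.

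Among the promoters printed above, *Nectin2*, an adhesion molecule gene, had the highest CTCF with a core: 329 and 327 (WT), 366 and 315 (*Trdn-as* KO) and 326 and 349 (*Mettl3* KO), with its match at positions −169 to −158 from the start. The core of *Ext2*, which encodes a heparan sulfate polymerase, lay at −36 to −25, and its CTCF values of 267 to 334 exceeded its Pol II values of 98 to 172. *Rsad1*, an enzyme gene of the radical SAM family, likewise had a higher mean for CTCF (278.2) than for Pol II (245.5). *Ap5b1*, an adaptor complex gene, reached a mean CTCF of 435.8 without a core in the window, which held 4 GC boxes and an ETS motif. *Trp53*, the gene of the tumour suppressor p53, had 345 to 392 for CTCF and 474 to 687 for Pol II, with a CCAAT box at −8 to −4 and an E-box at 10 to 15. IgG at these 7 promoters had means between 63.7 and 184.

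The first comparison asked whether loss of *Trdn-as* transcription changed Pol II at these promoters. Few members were called. Of the 6341, 2 were called higher and 4 lower in *Trdn-as* KO than in WT (limma on log2(value + 1), Benjamini-Hochberg over all 52655 peaks tested, called at an adjusted p below 0.05), which is 0.0946% of members against 0.304% of all tested peaks. The median log2 difference of members was −0.03, and 191 (3.01%) had an unadjusted p below 0.05, against 7.70% of tested peaks. These values moved with the scaling and with *Trdn-as* KO libraries. The median was 0.03 with size factors within the target and −0.63 when libraries were scaled to uniquely mapped reads (−0.65 for all tested peaks), −0.19 without *Trdn-as* KO replicate 1 and 0.13 without replicate 2. The share at an unadjusted p below 0.05 was 14.7% against 10.6% with size factors within the target.

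*Thoc1*, which encodes a subunit of the THO complex for mRNA export, had Pol II values of 417 and 428 (WT), 275 and 175 (*Trdn-as* KO) and 484 and 538 (*Mettl3* KO), a log2 difference of −0.94 ± 0.18 (SE, n = 2; limma adjusted p = 0.0019). IgG at *Thoc1* was also lower, 66 in *Trdn-as* KO against 130 in WT. *Agpat2*, a phospholipid acyltransferase gene, went from 614 and 703 to 417 and 348 (−0.78 ± 0.15, limma adjusted p = 0.0034), in a peak centred 3908 nt upstream of the start. *Pkmyt1*, a cell cycle kinase gene, went from 238 and 261 to 154 and 108, and *Rilpl1* from 335 and 336 to 243 and 138. *Sdf2l1*, a gene of protein folding in the endoplasmic reticulum, rose from 98 and 98 to 225 and 200 (1.11 ± 0.23, limma adjusted p = 0.0076), while *Mettl3* KO had 96 and 118. Its promoter, printed above, held 4 CCAAT boxes and none of the other motifs. *St3gal4*, a sialyltransferase gene, rose from 407 and 455 to 682 and 664 and lies in the stretch of chromosome 9 described with CTCF, where IgG was also higher. With size factors set within the Pol II libraries, 45 members were higher and 36 lower, 1.28% of members against 0.763% of tested peaks, so members were below the background under one scaling and above it under the other. Without *Trdn-as* KO replicate 1 the count was 593, 589 of them lower (9.35% of members against 3.62% of tested peaks), and without replicate 2 it was 5 (0.0789% against 0.0798%), and it was 0 without any one of the WT or *Mettl3* KO libraries.

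For *Mettl3* KO against WT, Pol II changed at 77 members, 67 higher and 10 lower. That is 1.21% of members, against 1.19% of all tested peaks, so the total was near the background. Higher calls made up 1.06% of members against 0.712% of tested peaks, and lower calls 0.158% against 0.482%. This split depended on the scaling. Members had a median log2 difference of 0.27, all tested peaks 0.08 and peaks with a Pol II mean of 50 or more 0.22. With size factors set within the Pol II libraries the median of all tested peaks moved from 0.08 to −0.12, that of members to 0.06, and 179 members were higher and 208 lower (2.82% and 3.28%, against 1.07% and 3.35% of tested peaks). The called members named for this comparison kept their direction under both scalings. The smallest difference called was 0.47 on the log2 scale, larger than the shift of the medians, so this could hardly have turned out otherwise.

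Genes of the daily clock stood on both sides of this comparison. *Npas2*, an activator of the clock, had Pol II values of 64 and 100 (WT), 100 and 102 (*Trdn-as* KO) and 340 and 349 (*Mettl3* KO) at chr1:39231061-39233649, a log2 difference of 2.09 ± 0.23 (SE, n = 2; limma adjusted p = 4.4e-09). Both *Mettl3* KO libraries were above all of the other 4. At 78.6% of all members both *Mettl3* KO libraries were above both WT libraries. *Arntl*, which encodes the clock activator BMAL1, rose from 204 and 185 to 540 and 563 (1.5 ± 0.18, limma adjusted p = 7.2e-08), and *Trdn-as* KO lay between them with 296 and 238. Several genes of clock repressors and outputs fell: *Ciart* from 467 and 536 to 231 and 253 (−1.05), *Per2* from 302 and 302 to 165 and 133 (−1.02), *Cry1* from 374 and 345 to 197 and 213 (−0.81) and *Hlf*, a PAR bZIP output factor, from 226 and 228 to 88 and 104 (−1.24). *Usp2*, a deubiquitinase gene that is under clock control in many tissues, went from 221 and 298 to 150 and 125 (−0.90). *Trdn-as* KO, compared with the same WT libraries, had 205 and 143 at *Hlf*, 242 and 200 at *Per2*, 407 and 291 at *Ciart* and 335 and 246 at *Cry1*, without a call. Of the 15 members at the 24 clock genes listed, 3 were called higher, of which only *Npas2* and *Arntl* are named here, and 4 lower. Under size factors within the target 4 were higher and 9 lower. The time of day at which hearts were taken is not given in the sources used here.

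Several genes of the extracellular matrix and of fibroblasts rose in *Mettl3* KO. Of 20 members at 19 of the 35 genes listed, 6 were called higher and 0 lower, with a median log2 difference of 0.41 against 0.27 for all members (0.20 against 0.06 with size factors within the target, where 7 were called higher and 1 lower). *Col1a1*, a fibrillar collagen gene, went from 163 and 161 (WT) to 373 and 370 (*Mettl3* KO), a log2 difference of 1.19 ± 0.20 (SE, n = 2; limma adjusted p = 0.00019), with 253 and 165 (*Trdn-as* KO). *Col1a2*, its partner chain, went from 147 and 153 to 336 and 307 (1.09), the growth factor receptor gene *Pdgfra* from 112 and 123 to 255 and 258 (1.12), and the fibrillin gene *Fbn1* from 276 and 303 to 461 and 528 (0.77). *Fzd2*, a Wnt receptor gene, went from 231 and 206 to 454 and 453 (1.05), and *Foxs1*, a forkhead factor gene, from 147 and 151 to 338 and 333 (1.17). At each of these 6 promoters both *Mettl3* KO libraries were above the other 4 libraries, while at 78.6% of all members they were above both WT libraries.

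Signal of 5 fibroblast marker promoters summed to 642 and 676 (WT), 969 and 656 (*Trdn-as* KO) and 1419 and 1415 (*Mettl3* KO), and 4 of the 5 were called higher in *Mettl3* KO. Of these markers *Col1a1*, *Col1a2* and *Pdgfra* are members. Sums over 9 cardiomyocyte markers were 29399 and 31374, 29802 and 22741, and 29604 and 30023. Sums over 4 leukocyte and macrophage markers ran from 142 to 195 in all 6 libraries. Sums over 4 adipocyte markers, mostly *Fabp4*, were 1109 and 1173, 1035 and 802, and 816 and 826, with no call in *Mettl3* KO. In ventricle chromatin, more cells of a type and more Pol II per cell cannot be told apart. None of the leukocyte genes listed had a member, and the strongest cardiomyocyte promoters (*Myh6*, *Myl2*, *Pln*, *Actc1* and *Tnnt2*) lie in peaks of 5000 nt or more, so members include only *Actn2*, *Ryr2* and *Tnni3* of the 9.

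**Figure D2:**
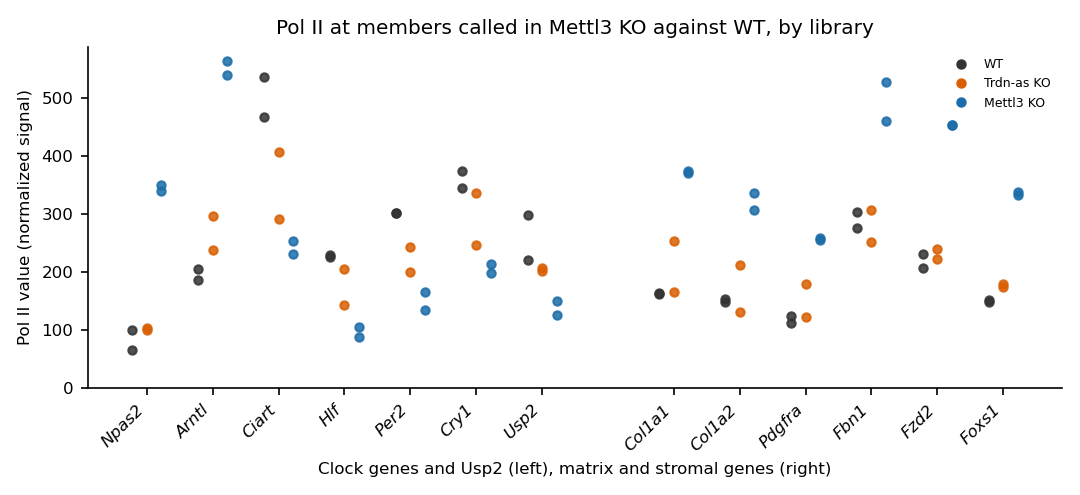
Pol II value (vertical, normalized signal) in each of the 6 libraries at 7 clock-related members (left) and 6 matrix and stromal members (right), 1 point per library, coloured by genotype. In *Mettl3* KO the 2 libraries lie above the other 4 at *Npas2*, *Arntl* and all 6 members on the right, and below WT at the other 5 on the left. Over all members, 78.6% had both *Mettl3* KO libraries above both WT libraries.

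Further members called in *Mettl3* KO are named here without a theme tested. *Pdk4*, the kinase that restrains pyruvate dehydrogenase, went from 263 and 251 (WT) to 479 and 472 (0.89 ± 0.19, SE, n = 2; limma adjusted p = 0.0046), and *Acadm*, a fatty acid oxidation enzyme gene, from 425 and 435 to 668 and 629 (0.59). *Casq2*, the calcium-binding protein of the sarcoplasmic reticulum, went from 233 and 241 to 396 and 410 (0.76), and the kinase gene *Camk2d* from 758 and 770 to 1041 and 1136 (0.51). *Cacna1c*, which encodes the L-type calcium channel, fell from 965 and 960 to 713 and 623 (−0.53), in a peak centred 2012 nt downstream of the start. Thus calcium handling genes gave 2 higher and 1 lower call among 18 members, where 1.06% of all members were higher and 0.158% lower. With size factors within the target 2 were higher and 3 lower. *Kcnk3*, a potassium channel gene, went from 355 and 402 to 572 and 658 (0.70), and *Bzw1* from 286 and 265 to 519 and 595 (1.01). *Cyp26b1*, a retinoic acid hydroxylase gene, fell from 135 and 138 to 44 and 54 (−1.47), *Pla2g2c* from 177 and 226 to 103 and 96 (−1.0) and *Gstt2*, a glutathione transferase gene, from 596 and 652 to 378 and 373 (−0.73).

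Groups of broadly used genes gave no call in this comparison under the joint scaling. The 64 members at 60 of 75 cytosolic ribosomal protein genes had a median log2 difference of 0.24, and *Rps6*, for example, went from 592 and 567 to 697 and 693. With size factors within the target the median of this group was 0.03. The 36 members at mitochondrial ribosomal protein genes (0.26), 43 at oxidative phosphorylation genes (0.28), 34 at splicing factor genes (0.27), 26 at genes of Pol II pausing and elongation (0.25), 20 at genes of CTCF, cohesin and looping (0.30) and 12 at m6A genes (0.29) had medians near the 0.27 of all members. So had cleavage and polyadenylation genes (20 members, 0.29), heat shock genes (19, 0.28), interferon-stimulated genes (20, 0.22), imprinted genes (6, 0.25) and fetal and stress cardiac genes (7, 0.32), again without a call. Under size factors within the target 2 heat shock members and 1 cytosolic ribosomal protein member were called lower, 1 imprinted and 1 cleavage member higher, and splicing and oxidative phosphorylation genes had 1 member in each direction. Sarcomere genes (16 members, 0.02), cardiac transcription factor genes (23, 0.07), endothelial genes (9, 0.01), immediate early genes (18, 0.13) and adipocyte genes (5, 0.16) gave no call, and their medians changed sign with size factors within the target, to −0.19, −0.14, −0.20, −0.08 and −0.04. Under that scaling 4 sarcomere members, 4 cardiac transcription factor members, 3 endothelial, 2 immediate early and 1 adipocyte member were called lower, and 1 cardiac transcription factor member higher, so the absence of calls depended on the scaling. Scaled to uniquely mapped reads, 0 members of any group were called. The median of ion channel genes (15, 0.02) also changed sign with size factors within the target, to −0.19. *Kcnk3* was their call under the joint scaling, and 2 were higher and 3 lower under the other. Glycolysis and TCA cycle genes (31, 0.25) and fatty acid oxidation genes (16, 0.35) each gave 1 call, *Pdk4* and *Acadm*. With size factors within the target they gave 1 higher and 2 lower, and 1 higher and 0 lower. Only 1 of 58 clustered protocadherin genes, known for promoters bound by CTCF, had a member, and it was not called. Under the joint scaling, in Pol II of *Trdn-as* KO against WT and in CTCF of either knockout against WT, no member of any of the 25 lists was called.

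The Pol II count for *Mettl3* KO depended on which libraries set the spread. It was 2237 without *Trdn-as* KO replicate 2 (35.3% of members against 8.84% of tested peaks), 2199 without replicate 1 (34.7% against 8.65%), 2 and 1 without WT replicate 1 or 2, and 0 without either *Mettl3* KO replicate. It was 2322 when *Trdn-as* KO was left out of the model, 2249 of them higher, or 36.6% of members against 9.23% of tested peaks. With WT replicate 1 or 2 left out the shares were 0.0315% against 0.0228% and 0.0158% against 0.0247%.

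Pol II in *Trdn-as* KO against *Mettl3* KO gave 6 members higher and 103 lower. This was 1.72% of members against 1.5% of tested peaks, with 0.0946% of members higher (tested peaks 0.355%) and 1.62% lower (1.15%). The median of members was −0.30 and that of all tested peaks −0.16. With size factors within the target 172 were higher and 103 lower (2.71% and 1.62%, against 2.23% and 0.843% of tested peaks), so the split turned with the scaling. The comparison uses the libraries of both others. *Npas2* (−1.76), *Arntl* (−1.05), *Pdk4* (−1.14), *Bzw1* (−0.94) and *Thoc1* (−1.21) were lower in *Trdn-as* KO. *Syt17*, a synaptotagmin gene, had 91 and 47 (*Trdn-as* KO) and 188 and 170 (*Mettl3* KO). *Sdf2l1* (0.99), *Hlf* (0.83), *Pla2g2c* (1.09), *Mpped2* (0.79), the potassium channel subunit gene *Kcnip2* (1.16) and the irisin precursor gene *Fndc5* (0.73) were the 6 higher. *Acadvl* and *Acot2*, both of fatty acid oxidation, were lower by 0.72 and 0.73 on the log2 scale. The count was 4107 without *Trdn-as* KO replicate 1 (64.8% of members against 18.1% of tested peaks), 25 without replicate 2 (0.394% against 0.245%), 4 without either WT library and 0 without either *Mettl3* KO library.

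CTCF changed at 17 members in *Trdn-as* KO against WT, 10 higher and 7 lower. This was 0.268% of members against 0.587% of the 60649 peaks tested, with 0.158% higher (tested peaks 0.348%) and 0.11% lower (0.239%). Of the 10 higher members, 8 were on chromosome 9 and 7 of those lay within a single stretch of it.

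*Pknox2*, a homeobox gene, had CTCF values of 154 and 164 (WT), 260 and 246 (*Trdn-as* KO) and 186 and 187 (*Mettl3* KO) at chr9:37055619-37059305, a log2 difference of 0.67 ± 0.08 (SE, n = 2; limma adjusted p = 6.8e-05). *Vsig2*, an immunoglobulin-domain gene, had 80 and 99 (WT) and 168 and 135 (*Trdn-as* KO), a difference of 0.75 ± 0.12 (limma adjusted p = 0.0028). *Srpr*, the receptor of the signal recognition particle, had 108 and 90 against 142 and 158, *Foxred1*, an assembly factor of respiratory complex I, 62 and 59 against 89 and 100, the decapping gene *Dcps* 59 and 54 against 86 and 93, *St3gal4* 66 and 79 against 118 and 102 and the transporter gene *Slc37a2* 86 and 64 against 118 and 112. *Ctsh*, a cathepsin gene on chromosome 9 but outside the stretch, had 51 and 45 against 74 and 73.

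The stretch was found after the values were seen, as the only autosomal run in *Trdn-as* KO where the running median of the CTCF difference over 9 neighbouring peaks with CTCF at 50 or more departed from the autosomal median by over 0.3 (log2). The same rule found 1 run in *Mettl3* KO, of 6 such peaks on chromosome 2 with a median difference of 0.32. CTCF chose the stretch, while Pol II and IgG were not used. It spans chr9:34396721-37548218 (3151498 nt) and holds 161 peaks, 41 of them with CTCF at 50 or more, and 13 members: *Pknox2*, *Vsig2*, *Srpr*, *Foxred1*, *Dcps*, *St3gal4*, *Slc37a2*, *Hepacam*, *Msantd2*, *Pate2*, *Spa17*, *Stt3a* and *Tmem218*. All 13 had a positive CTCF difference, with a median of 0.60 (0.17 to 0.75), and 12 had higher libraries that did not overlap with WT, against 14.4% of all members. As CTCF chose the stretch, these CTCF values are no independent result. Pol II differed in the same direction at all 13, with a median of 0.48 (0.17 to 0.67), and *St3gal4* was called. IgG, which marks no protein, was above WT in *Trdn-as* KO at 11 of the 13, against 40.3% of all members. As a share of the autosomal signal of its library, the whole stretch was 1.46 times WT in *Trdn-as* KO for Pol II, 1.43 times for CTCF and 1.47 times for IgG, while *Mettl3* KO was 1.01, 0.98 and 0.99 times WT. For CTCF the shares were 0.165% and 0.167% (WT) against 0.238% and 0.238% (*Trdn-as* KO). The nearest members outside, *Fli1* 1941527 nt before the stretch and *Zfp202* 2555085 nt after it, had CTCF differences of −0.04 and 0.07. IgG thus moved with CTCF and Pol II at 11 of the 13 and was lower at *Slc37a2* and *Tmem218*, and its part in the result was not tested. Whether this DNA is present in more copies or comes from another strain background in *Trdn-as* KO was not tested either, so the calls in the stretch are not shown to be changes in binding. Without the stretch, 3 members were called higher for CTCF and 7 lower, 0.158% of members against 0.509% of tested peaks.

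The 7 members with lower CTCF in *Trdn-as* KO lay on 6 chromosomes. *Cxcl1*, a chemokine gene, had 79 and 77 (WT), 47 and 44 (*Trdn-as* KO) and 69 and 68 (*Mettl3* KO), for *Trdn-as* KO against WT −0.77 ± 0.12 (log2, SE, n = 2; limma adjusted p = 0.0022), and its IgG values were 51, 20 and 37. *Gsk3a*, a kinase gene, had 251 and 226 against 162 and 178 (−0.49 ± 0.08, limma adjusted p = 0.0034). *Zfp677*, a zinc finger gene, had 95 and 95 against 60 and 64, *Depdc1b* 64 and 55 against 32 and 36, *Cep55*, a gene of cell division, 115 and 118 against 87 and 70, and *Arhgap26*, a GTPase activator gene, 227 and 217 against 158 and 173. *Thoc1*, which fell in Pol II, also fell in CTCF, from 94 and 82 to 63 and 55. At 6 of these 7, all but *Thoc1*, Pol II was not called. IgG in *Trdn-as* KO was below WT at 6 of the 7 and above it at *Depdc1b* (59 against 25). No member was called for CTCF by limma when any one of the 6 libraries was left out. With size factors within the CTCF libraries 10 members were higher and 23 lower, 0.52% of members against 0.755% of tested peaks.

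CTCF in *Mettl3* KO against WT fell at 7 members and rose at 0, which is 0.11% of members against 0.185% of tested peaks. *Ercc1*, a DNA repair nuclease gene, had the largest signal of these: 360 and 330 (WT), 295 and 274 (*Trdn-as* KO) and 263 and 250 (*Mettl3* KO), a log2 difference of −0.43 ± 0.07 (SE, n = 2; limma adjusted p = 0.022). *Ntf3*, a neurotrophin gene, had 120 and 126 (WT) and 78 and 82 (*Mettl3* KO), *Tal1*, a blood and endothelial transcription factor gene, 115 and 113 against 72 and 74, *Bahcc1* 178 and 193 against 142 and 128, and *Nrarp*, a Notch target gene, 75 and 75 against 47 and 51. *Gstt2* fell in CTCF, from 127 and 132 to 80 and 78, as it did in Pol II. *Trdn-as* KO, compared with the same WT libraries, had 153 and 142 at *Bahcc1*, without a call. These peaks were long, with a median of 3529 nt, and were centred a median of 2425 nt from the start, against 1712 and 244 nt for all members. With size factors within the target 31 were higher and 16 lower, 0.741% of members against 0.73% of tested peaks. No member was called by limma without any one of the 6 libraries.

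CTCF in *Trdn-as* KO against *Mettl3* KO gave 20 members higher and 13 lower, 0.52% of members against 1.37% of tested peaks, and 10 of the 20 lay in the stretch of chromosome 9. Without the stretch 9 were higher and 12 lower, 0.332% of members against 1.15% of tested peaks. Outside it *Pcp4l1* had 70 and 65 (*Trdn-as* KO) and 38 and 36 (*Mettl3* KO), and the Notch ligand gene *Dll4* 183 and 179 against 145 and 134. *Ccn2*, a matricellular growth factor gene, was lower, with 103 and 97 against 138 and 134. With size factors within the target 13 were higher and 88 lower, 0.205% and 1.39% of members against 0.694% and 1.18% of tested peaks. The split of all tested peaks turned in the same way. No member was called by limma without any one of the 6 libraries.

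Pol II and CTCF were seldom called together. In *Trdn-as* KO against WT both were called at *St3gal4* and *Thoc1*, in *Mettl3* KO against WT at *Gstt2*, and in the comparison of the knockouts at *Ccn2*, *Cxcl1*, *Depdc1b*, *Hlf*, *Nub1* and *Thoc1*. In each case the 2 targets moved in the same direction. In the model of both targets, 0 members had a Pol II response that differed from the CTCF response at an adjusted p below 0.05 (limma), in *Trdn-as* KO (5 of 40531 tested peaks, 0.0123%) or in *Mettl3* KO (2 of 40531, 0.00493%). At an unadjusted p below 0.05 there were 208 members for *Trdn-as* KO (3.28%, against 5.32% of tested peaks) and 1782 for *Mettl3* KO (28.1% against 12.6%). Under size factors within each target these were 987 (15.6% against 8.72%) and 808 (12.7% against 11.4%), so their order turned with the scaling. At an adjusted p below 0.05 this scaling gave 0 members for *Trdn-as* KO and 19 for *Mettl3* KO, 3 higher and 16 lower (0.30% of members against 0.257% of tested peaks). CTCF at *Npas2* was 69 and 64 (WT) and 97 and 97 (*Mettl3* KO), a log2 difference of 0.54 without a call, where Pol II rose by 2.09 on the log2 scale. At the 67 members with higher Pol II in *Mettl3* KO the median CTCF difference was 0.14, and at the 10 with lower Pol II it was −0.29, against −0.04 for all members.

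The share of the library signal held by members differed from WT by at most 3.03 percentage points. Members held 44.8% ± 0.73 (SD, n = 2) of the Pol II signal in WT, 45.4% ± 0.77 in *Trdn-as* KO and 47.8% ± 0.77 in *Mettl3* KO. They held 22.3% ± 0.22 of the CTCF signal in WT, 21.7% ± 0.04 in *Trdn-as* KO and 22.6% ± 0.10 in *Mettl3* KO, and between 24.6% and 26.8% of the IgG signal. The exact two-sided permutation test gave p = 0.67 for Pol II in *Trdn-as* KO and p = 0.33 for the other 3 comparisons, the smallest p that 2 libraries against 2 allow. In *Mettl3* KO both Pol II libraries (47.3% and 48.4%) were above both WT libraries (45.3% and 44.3%).

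In total 189 of the 6341 members were called in at least 1 of the 6 comparisons within a target, 158 of them for Pol II and 40 for CTCF. These were 2.98%, 2.49% and 0.631% of members, against 2.95%, 2.44% and 1.61% of the peaks tested, so the Pol II share was near the background and the CTCF share below it.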

How the data were processed

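Per the paper's methods and the submitters' processing notes, the authors trimmed the 72 nt ChIP-seq reads with Trimmomatic 0.39, aligned them to mm39 (GRCm39) with STAR 2.7.11b, removed duplicates with Picard 3.1.1, used MACS for peaks and made 1 common set for every library. The authors counted reads per peak with featureCounts and normalized them with DESeq2 1.36.0. The deposited score of the 15 libraries is this normalized value rounded to whole numbers, with size factors set jointly over all antibodies, and library sums ran from 1795351 (IgG) to 5185209 (Pol II). Input libraries (3) were left out. The design allowed for counts or normalized values, and the test for the latter was used.

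Peaks that reached a value of 10 in 2 or more libraries of a target were fitted with limma 3.58.1 (R 4.3.3) on log2(value + 1), with a variance trend, 1 model per target with the 3 genotypes, two-sided, and Benjamini-Hochberg adjustment over all peaks tested. A fold change on this scale understates the change of low peaks. Libraries with the same replicate number did not vary together (correlations of deviations −0.02, −0.05 and 0.02 for Pol II, −0.42, 0.03 and 0.00 for CTCF), so no block was used. The −0.42 was between WT and *Trdn-as* KO, where libraries with opposite numbers varied together, which the model did not take into account. The spacing of values gave what 1 read is worth in 13 of the 15 libraries, and RPM used the uniquely mapped reads that the Reporting Summary lists. Shares of signal had the exact permutation test. The other tools were Python 3.11.15 with pandas 2.3.3, numpy 2.4.6, scipy 1.17.1 and matplotlib 3.10.9.

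The members, the 25 gene lists and the markers were chosen with earlier results of these data known. Named members were, per comparison and direction, up to 8 called ones ranked by adjusted p whose libraries did not overlap, the 10 with the largest geometric mean of both signals (8 are shown), those nearest each threshold, and, per list, up to 4 called members or 2 without a call. *Pknox2*, *Nub1* and the members of the stretch of chromosome 9 are also named because of values seen, and some members that the rule names are not reported here. Promoter windows and motifs used RefSeq sequences of GRCm38.p6, matched by symbol or synonym, and no sequence of chromosome 18 is shown. Alternatives were other thresholds, scalings, filters and pseudocounts, a replicate block and leaving out each library.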

Additional observations from a re-analysis of the deposited data

Results flagged for a closer look

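The IgG signal of the stretch of chromosome 9 described above, as a share of the autosomal IgG signal, was 1.47 times as high in the *Trdn-as* KO library as in the WT library (95% exact interval 1.34 to 1.61, which covers counting error only). It drew attention because IgG is the negative control and was used in no test of the report. The shares were 0.251% in *Trdn-as* KO, 0.171% in WT and 0.169% in *Mettl3* KO, from 676, 1374 and 720 estimated reads, with 1 IgG library per genotype. The ratios for Pol II (1.46) and CTCF (1.43) lie inside that interval. Over the 13 members of the stretch alone, the IgG ratio was 1.63 for *Trdn-as* KO and 0.868 for *Mettl3* KO.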

How the results depend on the processing

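The counts of called members depended strongly on the processing, and in the order Pol II in *Trdn-as* KO against WT, *Mettl3* KO against WT and *Trdn-as* KO against *Mettl3* KO, then CTCF in the same order, they were as follows. At an adjusted p below 0.01 there were 3, 22, 19, 7, 0 and 15, and with both means at 100 or more 0, 24, 40, 7, 4 and 15. Size factors within the target gave 81, 387, 275, 33, 47 and 101, and quantile normalization 82, 376, 264, 34, 49 and 99. Uniquely mapped reads as library size gave 0, 0 and 1 for Pol II and 11 for CTCF in *Trdn-as* KO against WT, and could not be run for CTCF with *Mettl3* KO, where the value of 1 read was not found. Without the filter on low values all 6 were 0, where 101256 peaks are tested. Without the variance trend they were 0, 0, 0, 0, 0 and 1, and with only the genotypes compared 0, 2322, 9, 0, 0 and 0. A pseudocount of 5 gave 11, 128 and 205 for Pol II. The relation to the background changed as well. The share of members called was above that of all tested peaks in 3 of 17, 8 of 16 and 7 of 17 settings for Pol II and in 0 of 18, 1 of 15 and 0 of 16 for CTCF. For Pol II in *Mettl3* KO against WT it was 5.93% against 3.17% with quantile normalization and 1.09% against 1.44% with the replicate block, and in *Trdn-as* KO against *Mettl3* KO 3.23% against 2.43% with a pseudocount of 5. For the difference between the responses in *Mettl3* KO, size factors within each target gave 19, quantile normalization 19 and a pseudocount of 5 gave 2, against 0. Without the stretch of chromosome 9 CTCF gave 10 in *Trdn-as* KO against WT and 21 against *Mettl3* KO, an alternative chosen after seeing the data. The replicate block gave 8, 0 and 16 for CTCF and 9, 69 and 97 for Pol II, and blocking on crossed numbers, chosen after seeing the data, gave 27 for CTCF in *Trdn-as* KO against WT. Leaving out 1 library gave 0 to 593, 0 to 2237 and 0 to 4107 for Pol II, 0 throughout for CTCF, 0 to 272 and 0 to 277 for the differences between responses, and 0.103 to 1.19, 2.49 to 3.58, −0.777 to −0.467 and 0.144 to 0.453 percentage points for the shares of signal. Where this left 1 library in a group, that library was assumed to vary like the others. Of 1233 values of 74 named calls under these settings, 0 reversed, 581 stayed called and 652 were not called any more. The named calls were chosen with libraries that did not overlap, so their direction could reverse only under another scaling or normalization. With 2 libraries per group, members without a call are not shown to be unchanged.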
